A study of Blastobotrys raffinosifermentans with 8 samples.

Results

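The response of Blastobotrys raffinosifermentans to protocatechuic acid after 5 h was read from 2 of 8 arrays, those named Glc_5h and PA_5h. The members were chosen by their labels, as the only pair of arrays of the same time with and without protocatechuic acid at 5 h. All cultures were of the wild-type strain LS3, grown overnight in yeast minimal medium with glucose and nitrate, then moved to medium with 1% glucose alone (Glc) or with 1% glucose and 0.5% protocatechuic acid (PA) and shaken in flasks (180 rpm, 30 °C). Cells were taken at 4 times, the first after 15 min and the last after 5 h, and their RNA was labelled with Cy3 and hybridised to 1 array for each medium and time, the times between being 30 min and 2 h. Neither medium has a second array at 5 h, so a difference at 5 h taken alone has no replicate and no test (its departure from the earlier differences is tested over all 8 arrays further on), and each medium fills a row of its own on the slide, which leaves medium and slide row confounded: their effects cannot be told apart.

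Protocatechuic acid is a benzoic acid whose ring carries a pair of neighbouring hydroxyl groups. Microorganisms that grow on such compounds put hydroxyl groups on the ring or take its carboxyl group off, open the ring with a dioxygenase, and convert the open chain by hydratases, decarboxylases, aldolases and lactone hydrolases into acids of central metabolism. In this yeast the route belongs to the breakdown of tannins, in which tannases first release gallic acid from its esters. Genes for such enzymes are in many microorganisms turned on by the aromatic compound and left low while only sugar is present.

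Genes were valued by the median, over all spots with their identifier, of the log2 values in the authors' table, and a difference is PA minus Glc at the same time. The array carries 6160 identifiers, and those counted are the 6074 of which 2 or more arrays show a spot well above background. On Glc_5h 70.2% of the yeast spots were well above background and on PA_5h 59%, against 58.9% to 70.0% on the other 6 arrays. The spots above background on both arrays at 5 h numbered 35381, those on Glc_5h alone 7835 and those on PA_5h alone 945. For 5225 probes placed on 2 spots, the SD of the difference of 1 spot at 5 h was 0.24, which is an error within an array. Between cultures the number of arrays limits the precision.

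In the authors' table most genes differed little between the media at 5 h. The median difference was 0.00, the quartiles were -0.17 and 0.18, and 64.6% of the genes were within 0.25 of 0. The table is quantile normalized, which gives all arrays the same distribution of spot values, so a median near 0 is set in advance. With protocatechuic acid 48 genes were higher by at least 1, which is 0.79% of those counted, and 89 genes were lower by at least 1, which is 1.47%. At the earlier times more genes were higher than lower, with 376 (6.19%) and 127 (2.09%) at 15 min, 115 (1.89%) and 26 (0.428%) at 30 min and 108 (1.78%) and 51 (0.84%) at 2 h. A size of 2 was reached at 5 h by 8 genes that were higher and by 13 that were lower. The smallest difference counted among the higher genes was 1.009 and the largest not counted was 0.9975, and for the lower genes these were -1.006 and -0.9983. None of the 1822 genes of lowest level at 5 h reached 1 in size, and 44 of the 48 higher and 82 of the 89 lower genes were among the 2430 of highest level.

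**Figure D1:**
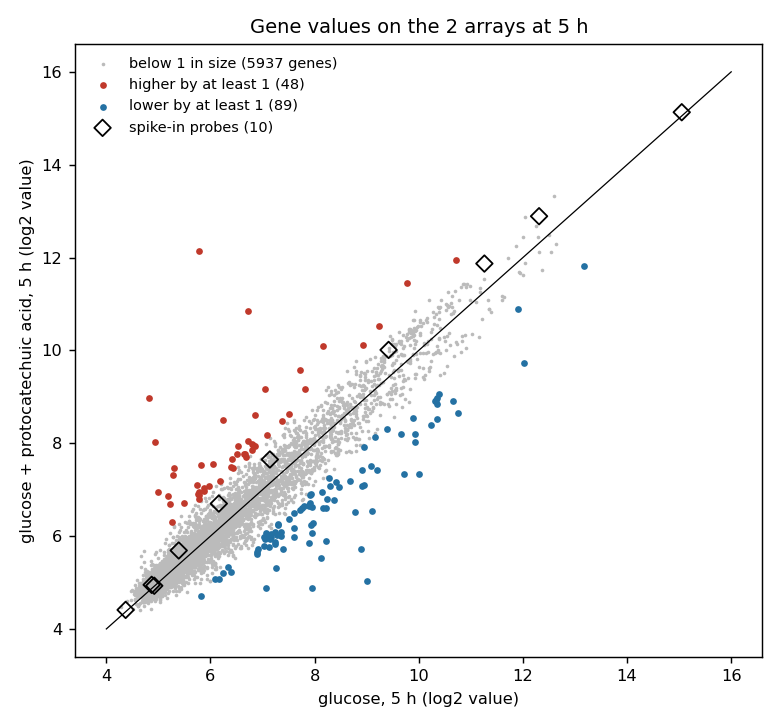
Log2 values of the 6074 genes counted, Glc_5h on the horizontal and PA_5h on the vertical axis, with the line of equal values. The 48 higher genes (red) and the 89 lower genes (blue) stand off the line. Of the 10 spike-in probes (diamonds) those of middle and high level lie above it, by up to 0.61, but the brightest by 0.07.

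The differences at 5 h were set against those of the spike-in probes, which bind control RNA that is added to the labelling and does not come from the yeast. Each of the 10 spike-in probes stands on 35 spots. Their median difference was 0.41 at 5 h, against -0.03 at 15 min, -0.07 at 30 min and -0.16 at 2 h. At 5 h all 10 were above 0, whereas 2, 2 and 1 of them were at the earlier times. The 6 spike-in probes with every spot above background on both arrays had a median of 0.56, and 5 of these lay between 0.51 and 0.61. The brightest spike-in probe had 0.07 after normalization, with median intensities of 32156.5 on Glc_5h and 38895 on PA_5h. Its intensity before normalization was thus higher on PA_5h. The next brightest probes were so too, with 5887, 3092 and 889 on Glc_5h and 7363.5, 3772 and 1072 on PA_5h. The 3 dimmest, which had at most 1 of 35 spots above background on either array, lay between 0.01 and 0.07.

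It was the glucose array on which most of the spike-in probes above background stood apart. The mean log2 value of the 5 spike-in probes next below the brightest was 9.26 on Glc_5h, and between 9.51 and 9.97 on the other 7 arrays, with 9.82 on PA_5h. These 5 are those with differences between 0.51 and 0.61 at 5 h. The brightest was not among them and did not stand apart, with 15.05 on Glc_5h and 15.0 to 15.13 on the other arrays. The 3 highest of the 5, for example, had 9.42, 11.26 and 12.31 on Glc_5h, the lowest value of the 8 arrays for each, and 10.01, 11.87 and 12.89 on PA_5h. Whether the same amount of control RNA went into each labelling is not given in the sources used here. If it did, a gene with a difference of 0.41 at 5 h is unchanged against the median of the spike-in probes, and 559 of the 6074 genes had more than that. On this reading 17 genes were higher by at least 1 and 281 were lower, so that the share of higher genes among those counted was 5.7% in place of 35.0%. It takes 0.41 off genes of every level, although the spike-in differences after normalization changed with level. The dimmest and the brightest spike-in probes lay between 0.01 and 0.07, and those of levels between them at 0.31 to 0.61. For dim and for the brightest genes the reading thus uses a shift that spike-in probes of their level did not show after normalization. Before it the brightest spike-in probe was higher on PA_5h, as given above. The dimmest were near background, where differences are compressed. The share of yeast spots above background also differed between these arrays, as given above, and its part in the difference of the spike-in probes was not tested.

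**Figure D2:**
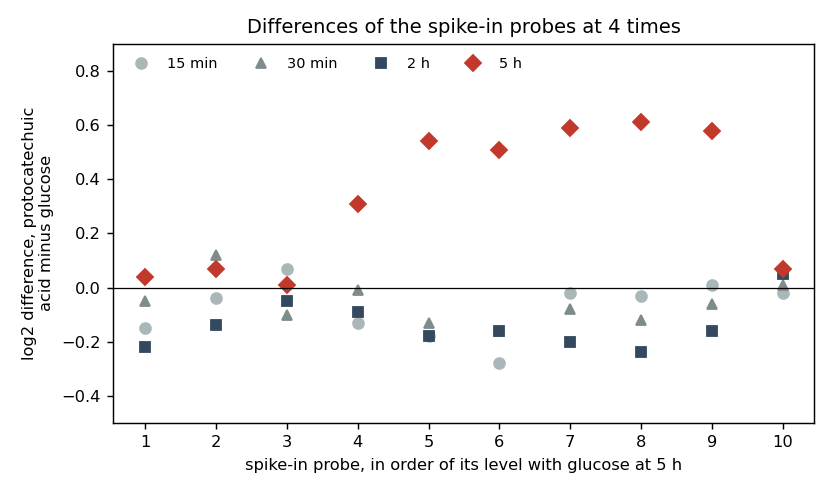
Log2 difference (PA minus Glc, vertical axis) of the 10 spike-in probes, each the median over 35 spots, in order of their level on Glc_5h (horizontal axis) and at the 4 times (symbols). At 5 h spike-in probes 4 to 9 lie between 0.31 and 0.61, above all values of the earlier times.

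The largest increase at 5 h was that of ARAD1D17754g, an identifier that the files do not pair with a name. With glucose its log2 value was 5.59, 4.94, 5.15 and 5.78 at the 4 times in order, and with protocatechuic acid it was 10.68, 13.55, 11.5 and 12.15. The 4 arrays with protocatechuic acid are all above the 4 with glucose and the ranges do not overlap. At 5 h the difference was 6.37 ± 0.71 (SD over 10 spots), which is 82.4-fold higher, and all 10 spots were higher. Its increase at 5 h was as large as that of 6.36 at 2 h.

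ARAD1C45804g, also without a name in the files, had the second largest increase. Its log2 value was 4.62, 4.57, 4.74 and 4.82 with glucose and 5.37, 9.08, 8.51 and 8.97 with protocatechuic acid at the 4 times. The 4 values with glucose lie below all 4 with protocatechuic acid, of which that at 15 min is low and those at the 3 later times are high. At 5 h the difference was 4.15 ± 1.33 (SD over 10 spots). With glucose 2 of its 10 spots were above background, and over the spots above background on both arrays the difference was 2.39.

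The other 6 genes that were higher by at least 2 at 5 h had differences of 4.14, 3.10, 2.26, 2.18, 2.12 and 2.04. In all 8 of these genes every spot was higher with protocatechuic acid. All 8 were also higher by at least 1 at 2 h, where their differences lay between 1.02 and 6.36, and 6 of the 8 were so at 30 min as well. Over all genes the shares were 1.78% at 2 h and 1.89% at 30 min. The gene next after ARAD1C45804g had log2 values of 9.03, 6.30, 6.17 and 6.72 with glucose and of 11.70, 11.82, 11.40 and 10.86 with protocatechuic acid. The gene after that one was higher at each later time with protocatechuic acid, with 5.35, 6.16, 7.10 and 8.03, while it stayed between 4.78 and 4.99 with glucose.

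The largest decrease was that of ARAD1A06160g. It had log2 values of 9.32, 6.08, 5.31 and 9.0 with glucose and of 9.07, 5.62, 4.65 and 5.03 with protocatechuic acid. The levels in both media were thus high at 15 min and low at 30 min and 2 h, and at 5 h the glucose array was high again while the array with protocatechuic acid was not. The difference at 5 h was -3.98 ± 1.57 (SD over 9 spots), or 15.8-fold lower, against -0.25, -0.47 and -0.66 before. On PA_5h 2 of its 9 spots were above background. The identifier just before it on chromosome A ran the same course, with 7.96, 5.20, 5.17 and 7.94 with glucose and 7.64, 4.99, 4.85 and 4.89 with protocatechuic acid. None of its 10 spots was above background on PA_5h, so the glucose value is at least 7.8-fold higher, set against the lowest value of any yeast spot above background on that array.

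ARAD1D45408g had the second largest decrease. With glucose it stood at 6.41, 6.01, 5.59 and 8.89 and with protocatechuic acid at 5.95, 6.38, 5.71 and 5.72. Only Glc_5h stands out among the 8 arrays, and the other 7 overlap between the media. The difference was -3.17 ± 1.46 (SD over 10 spots), or 9.0-fold lower, with all 10 spots lower. The files pair neither of these identifiers with a name.

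**Figure D3:**
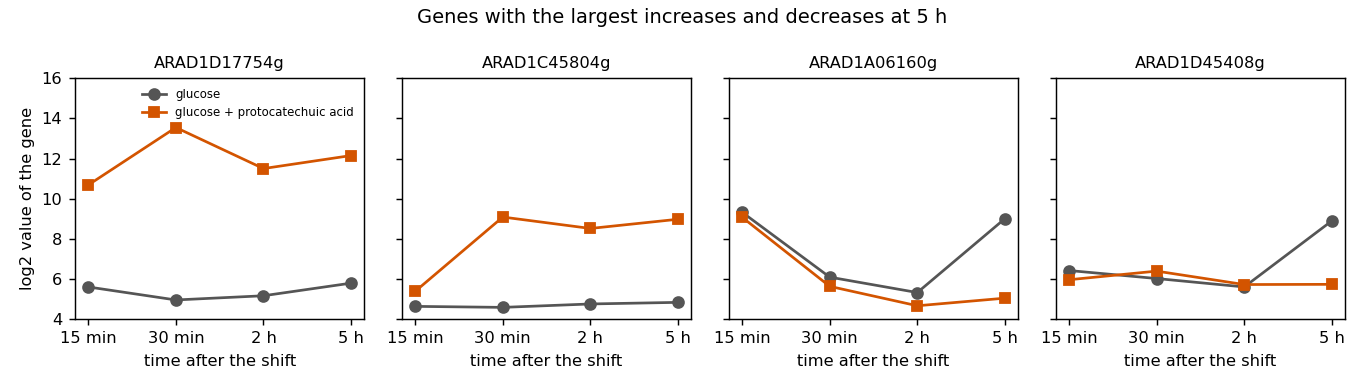
Log2 value (vertical axis) of the genes with the largest increases (left pair) and decreases (right pair) at 5 h on the 8 arrays, 1 point per array, by time after the shift (horizontal axis, not to scale). The increase of ARAD1D17754g is present at all times and that of ARAD1C45804g from 30 min on, and the decreases appear at 5 h, when the glucose values of 9.0 and 8.89 stand above those of 5.03 and 5.72 with protocatechuic acid.

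Among the 48 higher genes, 20 were higher by at least 1 at 2 h, 17 at 30 min and 10 at 15 min. These are 41.7%, 35.4% and 20.8% of the 48, and 18.5%, 14.8% and 2.66% of the genes that were higher at those times. The earlier pairs share no array with the pair at 5 h. Over all genes counted, the shares were 1.78%, 1.89% and 6.19%. The median difference of the 48 genes was 0.18 at 15 min, -0.04 at 30 min, when 23 of them were above 0, and 0.41 at 2 h. At all 4 times 8 genes were higher by at least 1, and 24 were so at 5 h and at no earlier time. The median level of the 48 genes was 6.58, 7.0, 6.88 and 6.43 with glucose and 7.23, 7.95, 7.99 and 7.77 with protocatechuic acid.

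Of the 89 lower genes, 12 were lower by at least 1 at 15 min, 2 at 30 min and 9 at 2 h. These are 13.5%, 2.25% and 10.1% of the 89, beside 2.09%, 0.428% and 0.84% of all genes. Of the 89, 69 were lower by at least 1 at 5 h and at no earlier time. No gene was lower by this much at all 4 times. Their median difference was -0.50 at 15 min, 0.07 at 30 min and -0.07 at 2 h, beside -0.11, -0.03 and -0.03 over all genes. The median level of the 89 genes was 8.15, 6.51, 6.4 and 7.95 with glucose and 7.70, 6.71, 6.42 and 6.57 with protocatechuic acid, so the median ran high, low and, with glucose at 5 h, high again, as ARAD1A06160g did and ARAD1D45408g did not. The 5 h values chose these genes and are given as a description.

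The high level at 15 min was found in both media, on arrays that had no part in the choice. With glucose 56 of the 89 genes (62.9%) were at least 1 higher at 15 min than at 2 h, beside 7.43% of all genes, and with protocatechuic acid 45 (50.6%), beside 9.57%. Since the lower genes are brighter than most, the share was also taken over the 2430 genes of highest level, where it was 11.6% with glucose and 11.2% with protocatechuic acid. The 48 higher genes had 12.5% and 14.6%. The 13 genes that were lower by at least 2 spanned 7.06 to 12.03 on Glc_5h and 4.89 to 9.73 on PA_5h, and for 9 of them no earlier difference reached 1 in size. In 12 of the 13 every spot was lower.

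**Figure D4:**
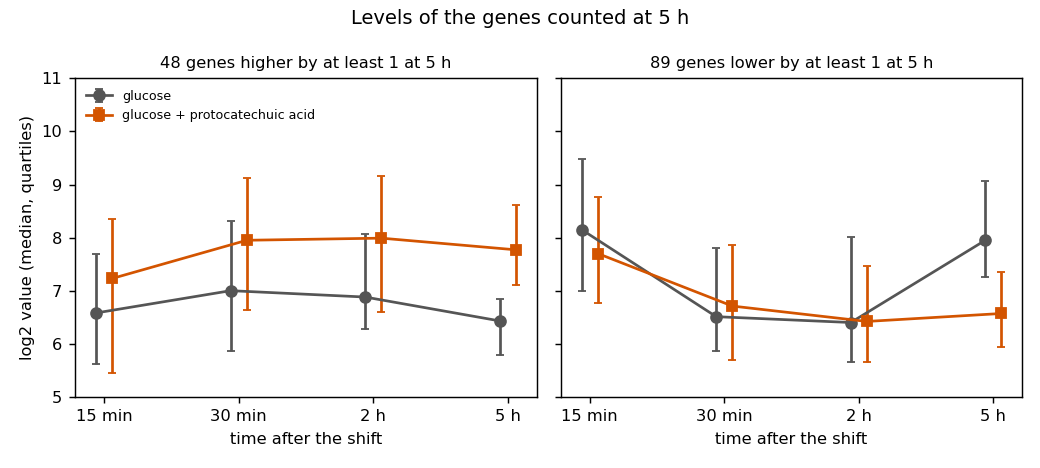
Log2 value (vertical axis; points are medians and bars quartiles over genes) of the 48 higher and the 89 lower genes by time after the shift (horizontal axis, not to scale), for both media. The median level of the higher genes with protocatechuic acid is above that with glucose at each time, although 25 of the 48 had a difference below 0 at 30 min, and the lower genes have like levels in both media at 30 min and 2 h and part at 5 h, with 7.95 against 6.57.

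Some of the counted genes lie next to each other on a chromosome. By the order of the identifiers, 6 of the 48 higher genes (12.5%) and 13 of the 89 lower genes (14.6%) had a direct neighbour past 1 in the same direction, beside 1.56% and 2.88% of all genes on the chromosomes that had such a neighbour. These formed 3 pairs of higher genes, 5 pairs of lower genes and 1 run of 3 lower genes on chromosome A, with sizes from 1.03 to 1.75. The largest pair of lower genes is ARAD1A06160g and the identifier before it, and the largest pair of higher genes is ARAD1D17754g and the identifier after it.

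Of 17 listed genes of aromatic degradation 16 have probes, and 1 of the 16, or 6.25%, was higher by at least 1, beside 0.79% of all genes, and 0 were lower. Their median difference was 0.16, beside 0.00 over all genes, 11 of 16 were above 0, beside 49.6% of all genes, and 4 were above the median of the spike-in probes, as 559 of the 6074 genes were. The list holds genes whose identifiers the study's text or supplementary table gives. It also holds genes of the study's tannin pathway with identifiers from an earlier account, among them the tannase genes and ARAD1A09218g. The list was chosen in part on these arrays and is not independent evidence of a direction. No probe carries the identifier of AGDC1, the gallic acid decarboxylase gene. The counts and the median take the listed genes on chromosome D under their own identifiers, and which genes those probes measure was not tested. Under the lower identifiers described further on, their differences lay between -0.11 and 0.90, against -0.10 to 0.53 under their own. None reached 1 under either reading, and the median and the other counts were not taken under the lower identifiers.

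The tannases release gallic acid from tannins. ATAN1 (ARAD1A06094g) had a log2 value of 5.18 on Glc_5h and 5.16 on PA_5h, and ATAN2 (ARAD1A19822g), a putative tannase, had 4.70 and 4.72. Their differences of -0.01 ± 0.16 (SD over 12 spots) and 0.02 ± 0.28 (SD over 10 spots) are smaller than the spread over spots. Both are close to background, with 1 spot above it on PA_5h. The study reports both genes as significantly upregulated on its arrays, in its text without a time. Probe positions were examined, further on, only for the listed genes on chromosome D.

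The 2-oxopent-4-dienoate hydratases add water to the open chain left after ring cleavage, and of the genes listed with this annotation, ARAD1A09218g and ARAD1C00330g, the latter is also named among the study's hydroxylase candidates. They had the highest differences of the list. ARAD1A09218g had log2 values of 5.90, 6.24, 6.88 and 6.85 with glucose and of 7.06, 9.04, 9.18 and 8.61 with protocatechuic acid. The 4 values with protocatechuic acid lie above all 4 with glucose. Its difference at 5 h was 1.75 ± 0.32 (SD over 11 spots), or 3.37-fold higher, and 1.35 after the median of the spike-in probes was taken off. It ranked 12 of 6074 from the top, with all 11 spots higher. ARAD1C00330g had 4.76, 4.69, 4.88 and 4.72 with glucose and 6.17, 7.22, 7.16 and 5.69 with protocatechuic acid, so it was lower at 5 h than at the 3 earlier times with protocatechuic acid and still above glucose. No spot of it was above background on Glc_5h. Its difference of 0.97, or 1.96-fold higher with protocatechuic acid, thus rests on a glucose value at background, and it moved with the processing, as given below.

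ARAD1A15158g, annotated as oxalocrotonate decarboxylase, which removes a carboxyl group from the opened ring, had 4.95 on Glc_5h and 5.33 on PA_5h. Its difference of 0.38 ± 0.33 (SD over 11 spots) is below the median of all spike-in probes and above those nearest it in level. These stood at 4.87, 4.92 and 5.39 on Glc_5h and had differences of 0.07, 0.01 and 0.31. Among the genes for hydroxylases, which put hydroxyl groups on aromatic rings, ARAD1C03498g had 5.98 and 5.69, a difference of -0.29 ± 0.24 (SD over 10 spots), against 1.76 at 15 min. The 2 neighbouring candidates on chromosome C had 0.13 and 0.00, and ARAD1A17402g had -0.23, the first and the last of these with no spot above background on PA_5h.

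Of the listed genes on chromosome D, ARAD1D18480g (a 3-oxoadipate enol-lactone hydrolase) had 10.42 on Glc_5h and 10.94 on PA_5h, and ARAD1D18502g (a phenol hydroxylase) had 9.19 and 9.63. Their differences of 0.53 ± 0.14 and 0.43 ± 0.09 (SD over 11 and 7 spots) are larger than the spread over spots and within the range of the spike-in probes. The differences of the other 5, ACDO1 (catechol-1,2-dioxygenase, which opens the ring) among them, lay between -0.10 and 0.31.

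Probe positions bear on what these 7 identifiers measure. The number that ends a probe name was read as the start of the probe in its gene. Under ACDO1's own identifier 7 of 10 probes end beyond the coding length, and under the identifier 660 lower, a reading known from earlier results of these data, 0 of 10 do and the last ends at 99.6% of it. With positions read in this way, the 7 probes under its own identifier do not lie within the ACDO1 coding sequence. For the hydroxylase candidate ARAD1D18392g the last probe ends at 92.5% of the coding length under its own identifier and at 89.3% under the lower one, for ARAD1D27984g at 39.1% and 63.8%, and for the phenol hydroxylase at 23.3% and 94.2%. Which genes the probes measure was not tested. Under the lower identifiers the difference at 5 h was -0.11 for ARAD1D09306g and 0.03 for ARAD1D27984g.

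At identifiers 660 lower, the range from the aldolase to the phenol hydroxylase holds 8 neighbouring identifiers on the array, with ARAD1D17754g near the middle. At 15 min, 30 min and 2 h 7 of the 8 were higher by at least 1 with protocatechuic acid, with medians of 2.09, 3.63 and 2.93. Over all genes the shares were 6.19%, 1.89% and 1.78%. At 5 h 2 of the 8 were, beside 0.79% of all genes, with a median of 0.52. The median of all spike-in probes was 0.41, which brighter probes set. The 8 identifiers stood at 4.62 to 5.78 on Glc_5h. Spike-in probes at 4.87, 4.92 and 5.39 there had differences of 0.07, 0.01 and 0.31. The change lies on the arrays with protocatechuic acid, on which 7 of the 8 were lower at 5 h than at 2 h and the median was 7.87 at 2 h and 5.33 at 5 h, while with glucose it was 4.92 and 4.89.

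Members of this range kept different shares of their increase. The identifier read as the catechol-1,2-dioxygenase had 5.57, 5.05, 4.97 and 4.98 with glucose and 7.95, 9.12, 8.23 and 5.33 with protocatechuic acid. Its difference was 3.26 at 2 h and 0.35 ± 0.37 (SD over spots) at 5 h, where it is within the spread over spots. The identifier read as the hydroxylase candidate ARAD1D18392g had 4.71, 4.47, 4.57 and 4.67 with glucose and 6.82, 9.01, 8.56 and 5.57 with protocatechuic acid, a difference of 3.99 at 2 h and of 0.90 ± 0.31 at 5 h. The identifier read as the aldolase, which splits the chain, had 0.67 ± 0.24 at 5 h, and that read as the lactone hydrolase had 0.36 ± 0.26. ARAD1D17754g, between these genes, had 6.36 at 2 h and 6.37 at 5 h, and the identifier after it had 3.91 and 1.46. The identifier read as the phenol hydroxylase was at -0.03 at 5 h and below 1 at every time.

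**Figure D5:**
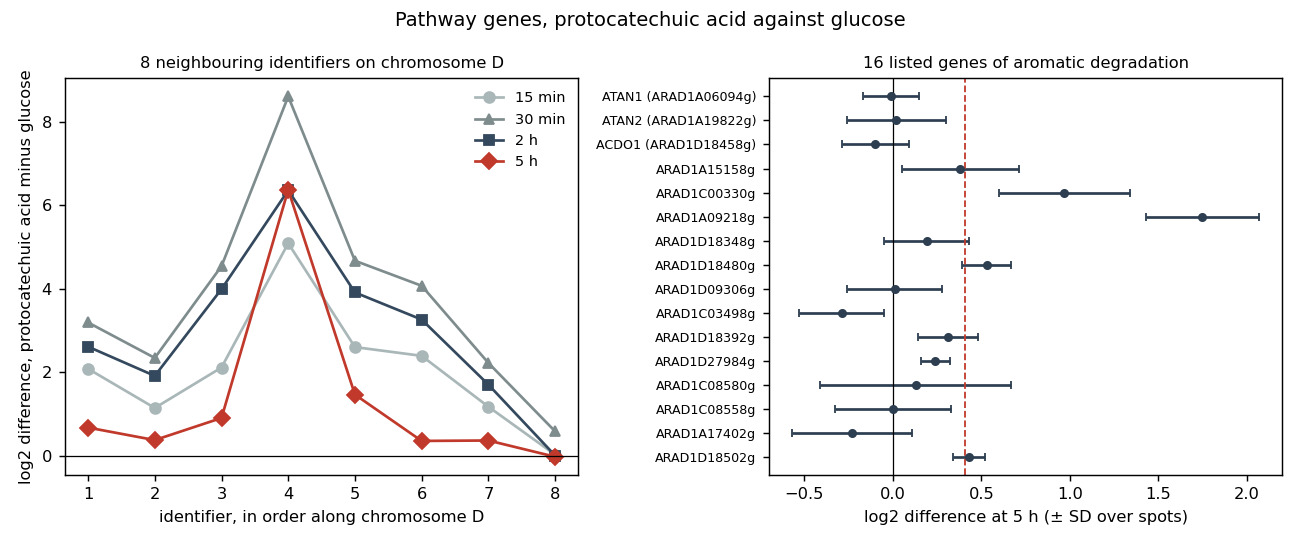
Left, log2 difference (PA minus Glc) of 8 neighbouring identifiers of chromosome D in their order, at 4 times; at 5 h ARAD1D17754g, the highest point, is at 6.37 and the other 7 lie between -0.03 and 1.46. Right, log2 difference at 5 h of the 16 listed genes under their own identifiers, with bars for the SD over spots and a dashed line at the median of the spike-in probes, 0.41; ARAD1A09218g is highest, at 1.75. Which genes the probes of the listed identifiers on chromosome D measure was not tested.

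The 42 genes that were higher by at least 1 at both 30 min and 2 h had a median difference of 0.57 at 5 h, and 15 of them (35.7%) were still higher by at least 1, beside 0.79% of all genes. Their median level with protocatechuic acid was 8.26 at 30 min, 7.38 at 2 h and 6.90 at 5 h, and with glucose 5.67, 5.33 and 5.58. The 376 genes that were higher at 15 min had a median of 0.00 at 5 h.

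Whether the difference at 5 h departs from that at the earlier times was tested with limma over all 8 arrays, with the time as a block and 2 residual degrees of freedom. After Benjamini-Hochberg adjustment over the 6074 genes, limma called 0 genes (0%), and 351 had an unadjusted p under 0.05, 227 with a higher and 124 with a lower difference at 5 h. If no gene differed, a share of 0.05 of the genes would fall under this threshold, and 351 of 6074 is near that share. With each difference read against the median of the spike-in probes, limma also called 0 genes, and the genes with an unadjusted p under 0.05 were 18 with a higher and 772 with a lower difference. Taking these medians off lowers the 5 h term of every gene by the same amount, so this split is largely set by the subtraction. The smallest adjusted p was 0.361, that of ARAD1A06160g, for which the difference at 5 h minus the mean of the earlier ones was -3.52 (standard error 0.26, unadjusted p = 0.000105 in limma). For ARAD1D45408g limma gave an estimate of -3.18 (standard error 0.39, adjusted p = 0.82). For ARAD1D17754g, whose increase varied between 5.09 and 8.61 at the earlier times, it gave -0.32 (standard error 1.41, adjusted p = 0.977), and for the identifier read as the catechol-1,2-dioxygenase -2.89 (standard error 0.69, adjusted p = 0.82). A p that misses the threshold at this size does not show that the differences were alike.

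Genes of all chromosomes had like medians at 5 h, with -0.01 for chromosome A, 0.01 for B, 0.00 for C and -0.01 for D. Lower genes made up 2.11% of the genes counted on chromosome A, 1.54% on B, 1.07% on C and 1.58% on D. The 32 mitochondrial identifiers had a median of 0.15 and 22 were above 0, against a median of -0.26 at 2 h, and they lay between -0.43 and 0.57. Of the 32, 2 were above the median of the spike-in probes. Their median log2 value was 5.93, 6.03, 6.03 and 5.79 with glucose and 5.75, 6.01, 5.58 and 5.97 with protocatechuic acid, so the media overlap. The 30 identifiers with the letter X had a median of -0.07.

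Within a gene, the difference at 5 h was smaller near the end than near the start. Over 5768 genes with at least 5 probes, the mean of the probes nearest the end minus that of as many nearest the start, each up to 1 in 3 of the probes, had a median of -0.08 at 5 h and was above 0 in 38.5% of the genes, against 0.06, 0.06 and -0.01 at the earlier times. Among the lower genes with enough probes, 85 of the 89, it was -0.43, and among 41 of the higher genes -0.07. The cause was not tested. Over the surface of the array the median difference of the yeast spots in 16 blocks lay between -0.11 and 0.18.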

How the data were processed

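Expression was measured on 8 single-dye arrays of 62976 spots, and groups were taken from the sample titles. Per the file headers, the deposited scanner intensities were read by Agilent Feature Extraction (version 11.5.1.1), with marks for spots well above background. The deposited table holds log2 values. The authors name limma, normexp and quantile normalization, and recomputing these with an offset of 16 gave the table to within 4.999e-09. Its column medians lie between 5.657 and 5.668. The offset draws the differences of dim genes towards 0.

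Genes were read from probe names and valued by the median over their spots. The 61537 yeast spots carry 6160 identifiers, 1 of which is not of the form used for genes. No annotation was used. The test over 8 arrays used limma (version 3.58.1, in R 4.3.3) with terms for time, medium and medium at 5 h, checked on simulated data. Figures were drawn with matplotlib. A number of spots given with an SD covers spots of 1 RNA sample.

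Named genes are those whose identifiers the study's text or supplementary table gives and those of its tannin pathway with identifiers from an earlier account. Added to these were the 2 genes with the largest increase and the 2 with the largest decrease at 5 h. They were taken among genes with at least 3 probes and a spot well above background on both arrays at 5 h. The members, lists and alternatives were chosen with earlier results of these data known. The alternatives tried were offsets of 0 and 50, the processed signal minus its 75th percentile, median scaling, the spike-in probes as reference, other values per gene, other filters, and, for limma, Bonferroni adjustment, a variance trend and leaving out times.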

Additional observations from a re-analysis of the deposited data

How the results depend on the processing

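Of the 48 and 89 genes counted at 5 h, none with a value changed sign under any alternative, and the counts moved. For the filters on genes, the size of 2 and the spike-in reference this was set in advance. They reuse the same differences, or shift them all by 0.41, which is less than 1. With an offset of 50 in normexp 23 genes were higher and 54 lower by at least 1, at offset 0 97 and 141, on the scanner software's processed signal 198 and 354, with the spike-in probes as reference 17 and 281, with the brightest probe of each gene 165 and 184, and at a size of 2 8 and 13. The other alternatives gave 42 to 69 higher and 72 to 105 lower genes. All 23 and 54 genes at an offset of 50 are among the 48 and 89, and all 48 and 89 are among those at an offset of 0. A larger offset draws differences towards 0, so this nesting follows largely from the method. With the processed signal 48 and 86 of them were counted, with the brightest probe 37 and 73. The share of higher genes among those counted was 35.0%, and 47.3% with the brightest probe. The median of the spike-in probes stayed above 0, between 0.28 and 0.65, and the difference between probe ends was -0.08 to -0.12. Of the named genes, ARAD1A15158g ranged from -0.03 with the spike-in reference to 1.42 with the processed signal, ARAD1C00330g from 0.51 to 3.24, ARAD1C45804g from 2.39 to 7.05 and ARAD1A06160g from -6.65 to -2.35, and the cause was not tested. The mitochondrial median was -0.26 with the spike-in reference. In limma the count of genes was 0 under each alternative, with a smallest adjusted p of 0.0556 without 15 min and of 0.992 or more without 2 h or 30 min, and between 164 and 873 genes had an unadjusted p under 0.05. Leaving out spots marked as outliers, and a limma fit on differences from the spike-in probes, were added after the data had been seen. The limma fit pairs the arrays of a time, and beyond that no paired analysis was possible because each medium has 1 array per time and the labels number no replicates. Genes near background have compressed differences, and 196 identifiers had no spot above it on either array at 5 h.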

Other observations

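At 5 h 407 identifiers had a spot well above background on Glc_5h and none on PA_5h, and 31 had one on PA_5h and none on Glc_5h. Of the 397 and 29 of these that were counted, 164 and 24 rested on 1 spot. Their median log2 values on the array where they were detected were 4.98 and 5.00. Set against the lowest value of a yeast spot above background on the other array, 4.98 on PA_5h and 4.37 on Glc_5h, or the gene's own value where that is higher, 3 of the 397 were higher with glucose by at least 1, by at least 7.8-fold for the highest, and 0 of the 29 were higher with protocatechuic acid by that much.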
